A study of Homo sapiens with 11 samples.

Results

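The comparison set 3 established T-cell acute lymphoblastic leukemia (T-ALL) cell lines with TAL1 activation, CCRF-CEM, MOLT-4 and JURKAT, against the other 8 T-ALL lines of the series, ALL-SIL, HPB-ALL, LOUCY, PEER, CML-T1, MOLT-14, MOLT-16 and SUP-T1. The 3 lines, here called TAL1 lines, were chosen from 11 by the name of the line, since a deletion or an enhancer mutation that activates TAL1 is background knowledge of these lines and is not part of their labels. The study itself asked which NKL homeobox genes, a subclass of developmental regulators, are active in blood cells and in T-ALL, and labelled each line as NKL-positive or NKL-negative. The TAL1 lines hold 2 NKL-positive lines (CCRF-CEM and JURKAT) and 1 NKL-negative line (MOLT-4), and the other lines hold 4 NKL-positive lines (ALL-SIL, HPB-ALL, LOUCY and PEER) and 4 NKL-negative lines (CML-T1, MOLT-14, MOLT-16 and SUP-T1). The labels give no treatment, and each line was measured on 1 HG U133 Plus 2.0 array, so that the line is the replicate and no error can be given for a single line. A line descends from 1 patient, and the groups differ in many lesions besides TAL1.

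TAL1 encodes a basic helix-loop-helix transcription factor of blood stem cells and of the erythroid and megakaryocyte lineages, which is normally switched off early in the thymus. It pairs with E proteins such as TCF3 and TCF12, binds E-box sequences, and assembles with LMO1 or LMO2, LDB1 and GATA factors into a complex that often sits on neighbouring E-box and GATA sequences. In T-ALL the gene is reactivated by a deletion that joins it to the promoter of its neighbour STIL, by translocation, or by small insertions that create a MYB binding site upstream of it. This subtype is commonly described as resembling late cortical thymocytes.

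The promoter of TAL1 and both promoters of ALDH1A2 are shown because these genes had the largest mean differences between the groups. ALDH1A2 makes retinoic acid and is a known target of the TAL1 complex in T-ALL cells. The windows come from RefSeq on build GRCh38.p14, cover 250 bases before to 50 after a transcription start, and are read 5′ to 3′ on the strand of the gene, which is the minus strand for both. The E-box CANNTG and the GATA sequence AGATAA were searched on both strands and are in capitals, and no match of one overlaps a match of the other here. RefSeq lists a second TAL1 window, which holds neither motif.
TAL1, chr1:47232286-47232585: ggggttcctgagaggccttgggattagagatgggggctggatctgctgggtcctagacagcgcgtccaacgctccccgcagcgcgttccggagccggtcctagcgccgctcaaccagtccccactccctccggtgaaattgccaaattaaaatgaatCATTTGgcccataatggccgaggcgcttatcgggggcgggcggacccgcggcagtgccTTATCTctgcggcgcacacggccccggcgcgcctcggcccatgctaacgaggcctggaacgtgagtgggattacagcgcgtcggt
ALDH1A2, upstream start, chr15:58065662-58065961: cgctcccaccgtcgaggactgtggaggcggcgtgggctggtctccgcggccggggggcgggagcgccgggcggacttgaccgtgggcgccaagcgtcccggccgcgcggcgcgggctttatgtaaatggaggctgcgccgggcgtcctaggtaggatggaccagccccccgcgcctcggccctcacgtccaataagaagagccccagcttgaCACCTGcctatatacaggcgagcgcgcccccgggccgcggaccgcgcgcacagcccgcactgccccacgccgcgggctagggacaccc
ALDH1A2, downstream start, chr15:58013974-58014273: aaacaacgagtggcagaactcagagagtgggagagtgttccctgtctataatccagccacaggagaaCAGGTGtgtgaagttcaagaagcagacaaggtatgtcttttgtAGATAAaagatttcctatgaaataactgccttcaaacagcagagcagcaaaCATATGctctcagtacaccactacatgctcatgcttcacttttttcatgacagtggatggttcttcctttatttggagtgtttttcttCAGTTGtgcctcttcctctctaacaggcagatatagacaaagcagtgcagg
The TAL1 window holds 1 CANNTG and 1 AGATAA, the upstream ALDH1A2 window 1 CANNTG, and the downstream ALDH1A2 window 3 CANNTG and 1 AGATAA. Of all 35116 promoter windows of the same length, 68.7% hold CANNTG and 10.3% hold AGATAA, and a match is a description of these letters and no proof of a binding site.

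The deposited values are on the log2 scale after robust multi-array averaging (RMA), so that a difference of 1 is a doubling of signal, and array medians ran from 4.63 to 4.76. The lower quartiles of the arrays were 3.45 to 3.60, and signals around them cannot be ranked. CD3D, a chain of the T-cell receptor complex, was high in every line, at 12.82 to 13.21 in the TAL1 lines and 12.64 to 13.44 in the other lines. Poly-A controls, bacterial transcripts that are added before labelling, averaged 7.86 to 8.76 in the TAL1 lines and 2.99 to 7.71 in the other lines (exact permutation test over 165 choices, two-sided, p = 0.0485). They read at background in 3 of the other lines, CML-T1, HPB-ALL and MOLT-16, so that differences are also given for the 3 TAL1 lines against the 5 other lines with controls. The ribosomal RNA controls averaged 8.74 ± 1.64 (SD, n = 3) in the TAL1 lines and 8.64 ± 1.20 (SD, n = 8) in the other lines (exact permutation p = 0.921). The 3′ minus 5′ signal of GAPDH, which grows as RNA is degraded or labelled incompletely, was 0.37 ± 0.30 (SD, n = 3) in the TAL1 lines and 0.08 ± 0.14 (SD, n = 8) in the other lines (exact permutation p = 0.0303), while that of ACTB was 0.72 ± 0.39 in the TAL1 lines and 0.66 ± 0.31 in the other lines (exact permutation p = 0.818). The GAPDH value was 0.72 in MOLT-4, while CCRF-CEM (0.17) and JURKAT (0.23) lay within the −0.20 to 0.24 of the other lines. MOLT-4 was also the highest of the 11 lines for ACTB (1.17) and for the ribosomal RNA controls (10.6). The part of these controls in the differences below was not tested.

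TAL1 itself separated the groups in 3 of its 4 probe sets. The probe set with the highest mean, 206283_s_at, read 8.92 in CCRF-CEM, 9.0 in MOLT-4 and 10.74 in JURKAT, against 3.26 in ALL-SIL, 2.71 in HPB-ALL, 3.38 in LOUCY, 3.40 in PEER, 3.79 in CML-T1, 5.23 in MOLT-14, 7.82 in MOLT-16 and 3.23 in SUP-T1. All TAL1 lines lay above all other lines, but MOLT-16, which the line names put among the other lines, came close to CCRF-CEM on this probe set, and MOLT-14 was second among the other lines. The mean difference was 5.45 on the log2 scale (SE 0.94), the sixth smallest of all p-values, with an adjusted p of 0.759 from limma. Without MOLT-16 the difference was 5.98 and the adjusted p 0.0209, and TAL1 was then the only probe set called. Leaving MOLT-16 out removes the highest of the other lines, so this value is no independent support. Over the lines with poly-A controls, which also lack MOLT-16, the difference was 5.85 with an adjusted p of 0.111.

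The remaining probe sets of TAL1 read nearer to background. Probe set 216925_s_at gave 6.27, 5.73 and 7.58 in CCRF-CEM, MOLT-4 and JURKAT, and 3.85 to 5.40 with a median of 4.88 in the other lines. Probe set 1561651_s_at gave 6.07, 5.82 and 6.22 in the same TAL1 lines, and 3.83 to 5.77 with a median of 5.06 in the other lines. Neither showed MOLT-16 apart from the other lines, where it read 5.17 and 4.96. The 4th probe set, 216928_at, overlapped, with 3.82 to 4.43 in the TAL1 lines and 3.15 to 4.60 in the other lines.

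**Figure D1:**
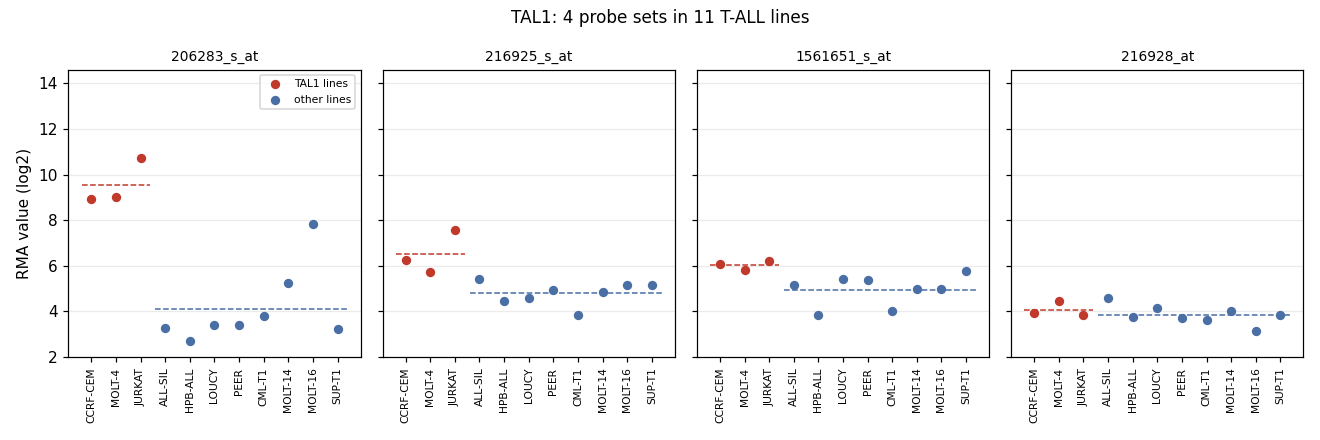
RMA values (y-axis, log2) of the 4 probe sets of TAL1 in 11 T-ALL lines (x-axis), with the 3 TAL1 lines in red, the 8 other lines in blue and dashed lines at the group means. On 206283_s_at the TAL1 lines read 8.92 to 10.74, and MOLT-16 is the highest of the other lines with 7.82.

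Across all genes the groups were not separated by any call. Of 54613 probe sets 0 (0%) passed an adjusted p of 0.05 by limma, while an unadjusted p under 0.05 was reached by 1253 with a higher and 1604 with a lower signal. Read by 1 probe set a gene, 552 of 19775 genes (2.79%) were higher and 404 (2.04%) lower at that unadjusted threshold. Chance alone gives a share of about 0.05 at that threshold, both directions together. The lowest TAL1 line lay above the highest other line in 133 genes (0.673%), and the highest TAL1 line lay below the lowest other line in 96 genes (0.485%). For a gene unrelated to the groups, 1 of the 165 choices of lines gives each of these patterns, a chance of 0.00606. The shares of 0.673% and 0.485% lie just above and below that chance. The genes named below for a lack of overlap are thus a description, and their tie to TAL1 was not tested. Against the 5 other lines with poly-A controls the genes without overlap numbered 344 (1.74%) and 249 (1.26%), a comparison with fewer lines in which a lack of overlap comes more easily. PCDH9, a cell adhesion protocadherin, held the only called probe set there, with a difference of 2.45 and an adjusted p of 0.0277 from limma. On this probe set, which is not that of highest mean, HPB-ALL read 10.11 and the TAL1 lines 5.40 to 5.78, and over all lines the difference was 1.36, so that the call rests on leaving out the highest of the other lines. The lines did not group by TAL1 activation in the whole profile: on the 30% most variable probe sets, 9.88% of the squared distances lay between the groups (exact permutation test over 165 choices, one-sided, p = 0.436). CCRF-CEM lay nearest to PEER, MOLT-4 to MOLT-14 and JURKAT to MOLT-4.

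After TAL1, HHIP had the largest mean difference among genes higher in every TAL1 line. HHIP is a membrane protein that captures hedgehog ligands. It read 9.34 in CCRF-CEM, 9.46 in MOLT-4 and 9.88 in JURKAT, against 4.07 to 8.26 with a median of 7.30 in the other lines, where MOLT-16 was again the highest. The mean difference was 2.84 (SE 0.78), and 3.43 over the lines with poly-A controls. Its other 3 probe sets pointed the same way with overlap. The divergent antisense gene HHIP-AS1 read 10.89, 10.47 and 11.34 in CCRF-CEM, MOLT-4 and JURKAT, and 6.17 to 11.21 with a median of 8.90 in the other lines, so that only MOLT-16 reached the TAL1 lines.

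SLC25A4, the ADP/ATP carrier best known from heart and muscle, read 7.62, 7.84 and 7.91 in CCRF-CEM, MOLT-4 and JURKAT, and 4.59 to 7.38 with a median of 5.54 in the other lines. The mean difference was 1.95 (SE 0.54), and SUP-T1 and MOLT-14 came nearest. FKBP1B, a binding protein of ryanodine receptors, read 5.81, 5.64 and 7.37 in the same order, and 2.92 to 5.22 in the other lines. STXBP2, which serves the release of granules, read 8.45, 7.88 and 8.23 against 4.17 to 7.60. TLE4, a corepressor of the Groucho family, read 9.31, 9.28 and 9.09 against 3.49 to 9.06 with a median of 8.28. Its gap to LOUCY was small, and its mean difference of 1.84 (SE 1.16) rested on the low values of ALL-SIL (3.49) and HPB-ALL (4.38). The other probe sets of TLE4 overlapped and differed by −0.18 to 0.60. Those of SLC25A4 and STXBP2 overlapped as well and differed by 0.003 and 0.06.

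REC8, a cohesin subunit of meiosis, read 6.99 in CCRF-CEM, 7.69 in MOLT-4 and 7.02 in JURKAT, against 4.73 to 6.22 with a median of 5.67 in the other lines. Its difference of 1.57 had a small standard error of 0.31, and FNDC10 differed by 1.62 (SE 0.34). ECM1, a secreted matrix protein, read 5.82 to 6.51 in the TAL1 lines and 4.01 to 5.62 in the other lines. ASPHD1 read 5.99 to 6.95 and 3.0 to 5.86, and TMUB1, a ubiquitin-like membrane protein, 7.43 to 7.56 and 4.73 to 7.22. DPY19L2P2, a pseudogene whose probes may also read its parent family, read 8.55 to 9.39 and 6.37 to 8.49. TMUB1 differed by 1.41 over all lines and by 0.80 over the lines with poly-A controls. The second probe set of REC8 differed by 0.56 with overlap, and that of ASPHD1 by 1.32 without overlap.

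Among the named genes lower in every TAL1 line, the receptor subunit IL2RB had the largest mean difference after TRDV3, and CCDC69 was close (−2.58). IL2RB is the beta chain of the receptors for interleukin 2 and interleukin 15. It read 5.90 in CCRF-CEM, 4.28 in MOLT-4 and 4.25 in JURKAT, against 6.02 to 9.09 with a median of 7.85 in the other lines, and LOUCY and CML-T1 were the highest. The difference was −2.77 (SE 0.73), and −2.62 over the lines with poly-A controls. SUP-T1 (6.02) and HPB-ALL (6.06) lay close to CCRF-CEM.

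TRDV3, a variable segment of the T-cell receptor delta chain, had the largest negative difference, −4.73 (SE 2.54), but its values fell into separate levels. The TAL1 lines read 2.66 to 2.92, and HPB-ALL, CML-T1, MOLT-16 and SUP-T1 read 2.97 to 3.31, all below the lower quartiles of the arrays. ALL-SIL, LOUCY, PEER and MOLT-14 read 12.36, 13.15, 12.19 and 10.02 and made up the whole difference. Thus the lack of overlap of TRDV3 rests on values that have no order.

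CCDC69 read 6.22, 6.65 and 3.60 in CCRF-CEM, MOLT-4 and JURKAT, and 7.06 to 9.47 in the other lines. DNAJC12, a cochaperone of aromatic amino acid hydroxylases, read 5.81, 6.51 and 6.42 in these TAL1 lines, and 7.11 to 10.21 with a median of 8.84 in the other lines. Its difference of −2.40 (SE 0.58) was −2.20 over the lines with poly-A controls. SPOCK2, a proteoglycan of the extracellular matrix, read 5.94 to 6.25 in the TAL1 lines and 6.44 to 10.11 in the other lines, and MAD1L1, a spindle checkpoint protein, 5.15 to 7.29 and 7.37 to 10.28. METAP1D, a methionine aminopeptidase of mitochondria, read 5.22 to 5.40 and 5.71 to 7.35, and the zinc finger gene ZNF215 3.39 to 3.91 and 4.09 to 7.27. CCZ1B has a near-identical copy, CCZ1, so that its values of 5.03 to 6.50 in the TAL1 lines and 6.68 to 7.90 in the other lines may belong to either gene. GPLD1, a phospholipase that releases anchored proteins, differed by −1.41, while 2 of its 6 probe sets had the opposite sign. The antisense genes TSPOAP1-AS1 and SLC25A25-AS1 differed by −1.70 and −1.57.

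**Figure D2:**
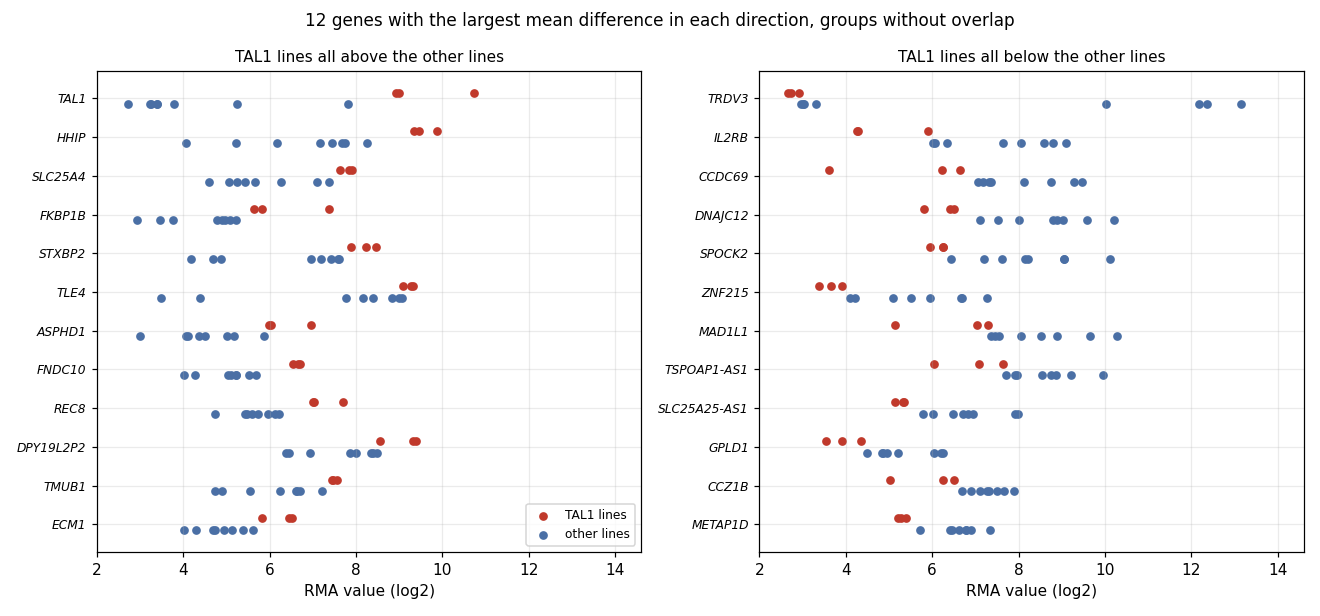
RMA values (x-axis, log2) of the genes without overlap that differed most, 12 in each direction (y-axis), with the 3 TAL1 lines in red above the 8 other lines in blue. HHIP reads 9.34 to 9.88 in the TAL1 lines, and TRDV3 of the other lines falls into 1 level near 3 and 1 above 10.

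The 5 probe sets with a smaller p than TAL1 were all lower in the TAL1 lines. None of them is the probe set of highest mean of its gene, and by that probe set the 5 genes differed by −0.22 (HEATR3) to −0.93 (HCG18). The 5 probe sets were chosen after their values were seen and carried the same adjusted p of 0.759. A probe set of HEATR3, which takes part in the import of ribosomal proteins, read 4.70, 3.97 and 5.04 in CCRF-CEM, MOLT-4 and JURKAT, and 5.96 to 7.07 in the other lines. A probe set of USP36, a deubiquitinase of the nucleolus, read 5.71, 5.59 and 5.99 against 6.84 to 8.19, and one of MSI2, an RNA-binding regulator of blood stem cells, 5.04, 5.73 and 4.44 against 6.56 to 8.15. The differences were −1.83 (SE 0.27), −1.65 (SE 0.25) and −2.24 (SE 0.37). ZNF780B and HCG18 differed by −1.82 and −1.33. Of the 25 probe sets with the smallest p, 18 were lower and 7 higher in the TAL1 lines.

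ALDH1A2 had the second largest mean difference of all genes. The enzyme oxidizes retinal to retinoic acid. It read 11.13 in CCRF-CEM, 11.54 in MOLT-4 and 12.11 in JURKAT, against 3.60 in ALL-SIL, 5.66 in HPB-ALL, 8.49 in LOUCY, 8.54 in PEER, 4.24 in CML-T1, 11.33 in MOLT-14, 4.58 in MOLT-16 and 4.49 in SUP-T1. The TAL1 lines were all high, MOLT-14 read within their range, LOUCY and PEER lay between, and MOLT-16 with its TAL1 of 7.82 was among the low lines. The difference was 5.23 (SE 1.47, adjusted p = 0.914 from limma), 4.30 over the lines with poly-A controls and 5.94 without MOLT-14. The second probe set of ALDH1A2 differed by 3.50 (SE 1.05), again with overlap through MOLT-14. Of the other 13 measured genes of the retinoic acid list, ALDH1A3, a related enzyme, was the only one at an unadjusted p under 0.05, with a difference of 0.61 among values of 3.02 to 4.54. The list had 7 genes higher and 7 lower and a median difference of 0.03.

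Other genes that are known to be activated by TAL1 did not separate the lines. MYB, a partner and target of the complex, read 12.25, 12.38 and 12.57 in CCRF-CEM, MOLT-4 and JURKAT, and 11.01 to 13.00 with a median of 11.93 in the other lines, where CML-T1 was the highest (difference 0.50, SE 0.37). GATA3, the GATA factor of T-cells, read 11.47, 10.69 and 11.68 in the TAL1 lines and 10.94 to 12.66 in the other lines (difference −0.20, SE 0.36). TRIB2, a pseudokinase, differed by −0.97 (SE 0.55), with 7.68 to 8.58 and 7.68 to 10.20. ARID5B, a chromatin regulator, read 8.88 to 9.52 in the TAL1 lines and 6.29 to 9.76 in the other lines. The opposite sign was seen in 2 of its 5 probe sets, near background at 2.87 to 4.09 over all lines. IGF1R, the receptor of insulin-like growth factor 1, differed by −1.32 (SE 0.62). Of the 11 measured genes of this list 8 were higher and 3 lower, with a median difference of 0.35 against 0.04 over all genes, of which 54.7% were higher.

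The partners of TAL1 varied more from line to line than between the groups. LMO2, the bridging protein of the complex, read 8.88 in CCRF-CEM, 6.44 in MOLT-4 and 2.96 in JURKAT, against 3.52 in ALL-SIL, 4.05 in HPB-ALL, 8.41 in LOUCY, 9.18 in PEER, 4.07 in CML-T1, 9.64 in MOLT-14, 9.93 in MOLT-16 and 3.12 in SUP-T1. Each group thus held high and low lines, the difference was −0.40 (SE 1.81), and its sign turned without JURKAT (1.17), MOLT-14 (0.05) or MOLT-16 (0.09). LMO1, the related bridging protein, read 4.59, 4.20 and 5.44 in CCRF-CEM, MOLT-4 and JURKAT and 3.40 to 4.97 in the other lines, with JURKAT the highest of all 11. LYL1, the closest relative of TAL1 in T-ALL, read 9.66, 7.32 and 6.35 in the TAL1 lines and 5.52 to 11.30 in the other lines. The E proteins TCF3 and TCF12 were high throughout and differed by 0.31 (SE 0.38) and 0.35 (SE 0.44). In the list of the TAL1 complex 13 of 22 measured genes were higher and 9 lower, beside 54.7% higher over all genes. The median difference was 0.31, and 0.084 over the lines with poly-A controls. TAL1 alone was without overlap, beside 0.673% of all genes that were higher without overlap.

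STIL, which lies next to TAL1 and whose promoter drives TAL1 after the deletion, read 8.02 in CCRF-CEM, 9.21 in MOLT-4 and 9.99 in JURKAT, against 7.83 to 9.50 with a median of 8.88 in the other lines. JURKAT was the highest and CCRF-CEM the second lowest of the 11 lines, and the difference was 0.25 (SE 0.44). Of the 7 measured genes on that stretch 5 were higher and 2 lower, and apart from TAL1 they differed by −0.22 (CYP4X1) to 0.50 (CYP4A11).

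Markers of cortical thymocytes, the stage in which receptor genes are rearranged, had the highest median difference of the 23 gene lists, 1.08. Of 21 measured genes 16 were higher and 5 lower. None was without overlap, and SATB1 alone passed an unadjusted p of 0.05. DNTT, the template-free polymerase of receptor rearrangement, read 9.49 in CCRF-CEM, 12.60 in MOLT-4 and 10.91 in JURKAT, and 3.16 to 11.35 with a median of 6.29 in the other lines (difference 3.99, SE 1.85). PEER, HPB-ALL and MOLT-14 reached the TAL1 lines with 11.35, 10.68 and 10.56. RAG1, a recombinase subunit, read 7.73, 10.27 and 7.88 in CCRF-CEM, MOLT-4 and JURKAT, and 2.75 to 11.26 with a median of 3.98 in the other lines (difference 3.0, SE 1.65). Its second probe set pointed the other way near background, with 2.92 to 3.45 in the TAL1 lines and 2.65 to 4.91 in the other lines.

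SATB1, a chromatin organizer of thymocytes, read 11.63, 11.04 and 12.19 in CCRF-CEM, MOLT-4 and JURKAT, and 8.90 to 11.63 in the other lines (difference 1.28, SE 0.53). ELOVL4, a fatty acid elongase, read 9.11 to 10.93 in the TAL1 lines and 3.06 to 10.98 in the other lines, and CD1D, a lipid antigen presenter, 4.86 to 9.36 and 2.86 to 8.25. CD8A, the alpha chain of the CD8 coreceptor, pointed the other way, with 4.87 to 7.03 and 3.73 to 11.11. Also lower on this list were CD8B (−0.93), BCL6 (−0.62), CD1A (−0.18) and CD4 (−0.09). The list median was 1.07 over the lines with poly-A controls, but 0.22 without MOLT-4, the lowest among the 11 medians with 1 line left out. CD2, a mature T-cell marker, read 6.62, 10.09 and 10.89 in CCRF-CEM, MOLT-4 and JURKAT and 4.13 to 10.12 in the other lines, where MOLT-16 and HPB-ALL were high. Its difference was 3.25 (SE 1.51), and 4.53 without overlap over the lines with poly-A controls, which lack both. Mature T-cell markers had a median difference of 0.11, with 12 of 22 genes higher.

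**Figure D3:**
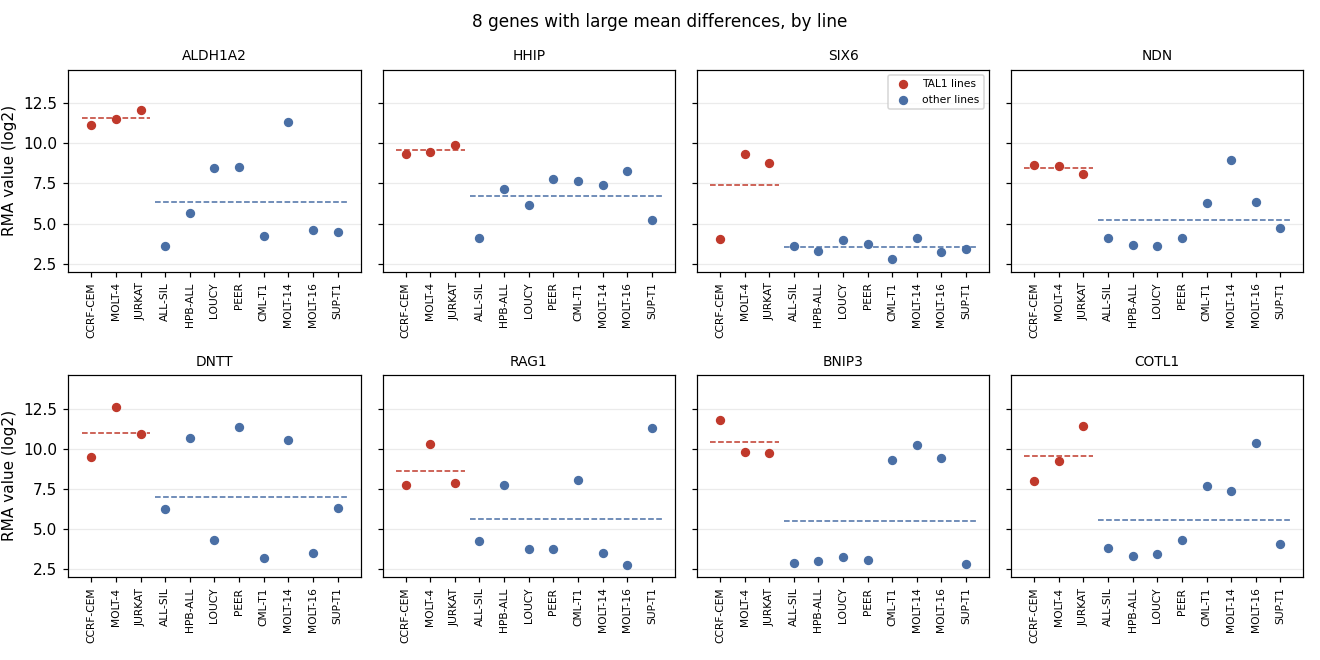
RMA values (y-axis, log2) of 8 genes with large mean differences in each of the 11 T-ALL lines (x-axis), with the 3 TAL1 lines in red, the 8 other lines in blue and dashed lines at the group means. ALDH1A2 and NDN are high in the TAL1 lines and in MOLT-14, and SIX6 is high in MOLT-4 and JURKAT but not in CCRF-CEM.

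Some large differences rested on lines that the groups do not explain, and these genes were picked after their values were seen. SIX6, a homeobox gene of eye and pituitary development, read 9.31 in MOLT-4 and 8.80 in JURKAT, but 4.04 in CCRF-CEM, against 2.81 to 4.09 with a median of 3.52 in the other lines. The difference was 3.87 (SE 0.86), and without CCRF-CEM it was 5.54 with an adjusted p of 3.19e-04 from limma, the only call of that comparison. Leaving CCRF-CEM out removes the only TAL1 line with a low value, so this call is no independent support. Without MOLT-4 the difference was 2.91. NDN, the growth suppressor necdin, read 8.66, 8.58 and 8.12 in CCRF-CEM, MOLT-4 and JURKAT and 3.60 to 8.96 with a median of 4.41 in the other lines, where MOLT-14 had the highest value of all 11 lines. BNIP3, a receptor for the removal of mitochondria, read 11.76, 9.80 and 9.73 in the TAL1 lines, and 10.25 in MOLT-14, 9.40 in MOLT-16 and 9.30 in CML-T1, while the remaining 5 lines read 2.83 to 3.21. COTL1, an actin-binding protein, read 7.95, 9.25 and 11.41 in the TAL1 lines, and MOLT-16 reached 10.36 and the other 7 lines 3.31 to 7.69. The differences were 3.24 for NDN, 4.94 for BNIP3 and 4.01 for COTL1.

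Cell cycle genes had small differences that mostly pointed the same way. Of 28 genes 24 were higher and 4 lower in the TAL1 lines, with a median difference of 0.30, beside 54.7% higher and 0.04 over all genes. Over the lines with poly-A controls 21 were higher with a median of 0.17, beside 52.5% and 0.02 over all genes. CDK1, the kinase of mitosis, was the only one without overlap, beside 0.673% of all genes that were higher without overlap. It read 11.88, 11.94 and 12.08 in CCRF-CEM, MOLT-4 and JURKAT and 10.40 to 11.83 in the other lines (difference 0.69, SE 0.29). Its other probe sets overlapped, and 1 of its 4 had the opposite sign. E2F1, a transcription factor of the start of replication, read 8.35 to 9.13 in the TAL1 lines and 6.80 to 8.75 in the other lines (difference 0.91, SE 0.38). CML-T1 and MOLT-16, both without readable poly-A controls, were the lowest lines for both genes.

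Of the NK-cell and cytotoxic markers 11 of 15 were lower and 4 higher, with a median difference of −0.27, while 54.7% of all genes were higher. IL2RB was the only marker without overlap, beside 0.485% of all genes that were lower without overlap. The 4 higher markers were GNLY (0.96), GZMA (0.91), NCAM1 (0.25) and TBX21 (0.095). NKG7, a protein of cytotoxic granules, read 9.11 in CCRF-CEM, but 3.60 in MOLT-4 and 4.08 in JURKAT, against 5.30 to 11.41 in the other lines (difference −2.83, SE 1.35). KLRD1, an NK-cell receptor, stayed at 2.92 to 3.60 in the TAL1 lines and 3.55 to 4.78 in the other lines. The summed level of this list, as its mean per line, was 4.34 to 5.46 in the TAL1 lines and 4.54 to 6.63 in the other lines.

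BCL2, which restrains apoptosis, read 6.09, 6.62 and 6.29 in CCRF-CEM, MOLT-4 and JURKAT, and 5.92 to 10.85 with a median of 8.28 in the other lines (difference −1.95, SE 0.91). BAD, a promoter of apoptosis that binds BCL2 relatives, read 7.87, 8.38 and 7.98, and 6.36 to 8.08 (difference 0.89, SE 0.32). The opposite sign was seen in 1 of the 4 probe sets of BCL2 and in 1 of the 3 probe sets of BAD. PMAIP1, also of this family, read 9.70 to 9.94 in the TAL1 lines and 9.06 to 11.74 in the other lines (difference −0.88, SE 0.58). Of 14 genes of the BCL2 family 7 were higher and 7 lower. In PI3K signalling 5 of 16 genes were higher and 11 lower, with a median difference of −0.10. INPP5D, the phosphatase SHIP1, read 6.98 to 8.18 in the TAL1 lines and 7.33 to 9.31 in the other lines, and PIK3R1, the regulatory subunit, 7.41 to 8.64 and 8.41 to 10.40. Their differences were −1.12 each (SE 0.46 each), and −0.83 and −0.81 over the lines with poly-A controls. TSC1, which restrains mTOR, differed by 0.57 (SE 0.24).

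Genes around the tumor suppressor CDKN2A were near background in part of each group. MTAP, the neighbour that is often deleted with CDKN2A, read 2.96 in CCRF-CEM and 2.74 in JURKAT but 7.28 in MOLT-4 on its probe set of highest mean. There ALL-SIL read 3.12, CML-T1 2.92 and MOLT-14 3.02, and the other 5 lines 6.35 to 8.66. The probe sets of MTAP differed on ALL-SIL, so that a lack of signal in this line is not shown. Another probe set also read 3.12 in ALL-SIL. Further probe sets read 5.58 and 5.99 in ALL-SIL, beside 5.48 and 5.71 in PEER and 3.4 and 3.11 in JURKAT. The opposite sign of the group difference was seen in 2 of the 6 probe sets of MTAP. KLHL9, a ubiquitin ligase adaptor that lies near CDKN2A and was picked after its values were seen, read 3.06 in JURKAT and 8.03 to 9.83 in the other 10 lines. CDKN2A read 3.78, 5.98 and 5.15 in CCRF-CEM, MOLT-4 and JURKAT, and 10.60 in HPB-ALL, 9.60 in LOUCY and 3.35 to 6.34 in the remaining 6 lines. CCND2, a cyclin of the step to replication, read 3.14, 3.82 and 5.27 in the TAL1 lines, and 2.92 to 11.85 in the other lines, with CML-T1 and MOLT-16 the highest.

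The remaining lists had median differences between −0.31 and 0.23. T-cell receptor signalling had 13 of 31 genes higher (median difference −0.13), NOTCH receptors and targets 12 of 20 (0.12, but −0.27 with 7 of 20 higher over the lines with poly-A controls), and FOXO targets 6 of 15 (−0.17). The list of the CDKN2A locus, RB1 and p53 genes had 12 of 19 higher (0.12), E protein targets of thymocytes 8 of 15 (0.06), and mismatch repair 2 of 6 (−0.08). Homeobox oncogenes had 6 of 11 higher (0.12), GIMAP genes, a family of lymphocyte GTPases, 5 of 7 (0.12, but −0.35 with 0 of 7 higher over the lines with poly-A controls), and MHC class II 7 of 8 (0.23, and 0.04 over the lines with poly-A controls). Among markers of other cells, early progenitors had 12 of 24 higher (−0.01), erythroid and megakaryocyte cells 9 of 17 (0.07, but −0.23 over the lines with poly-A controls), B-cells 6 of 13 (−0.31, but 0.27 without LOUCY) and myeloid cells 10 of 15 (0.13). None of these genes was without overlap, and no gene of the 23 lists was called by limma at an adjusted p under 0.05.

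**Figure D4:**
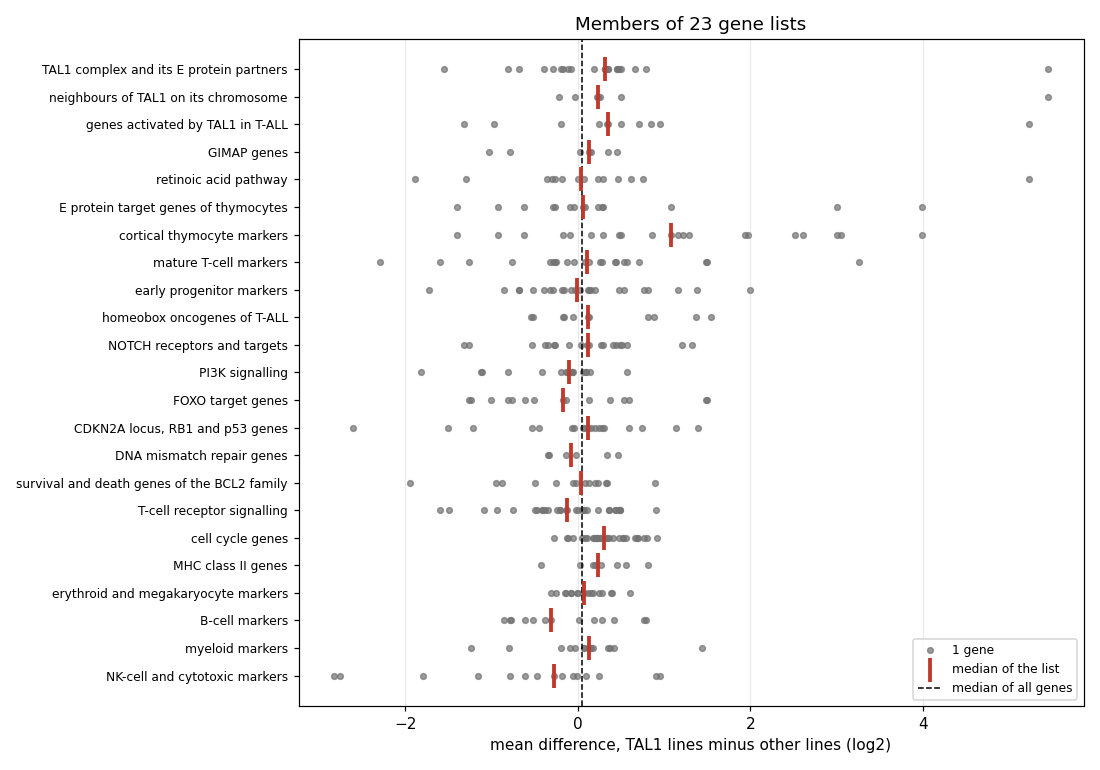
Mean difference of TAL1 lines minus other lines (x-axis, log2) for the measured members of 23 gene lists (y-axis), with a gray point for each gene and a red bar at the median of each list. The dashed line gives the median over all genes, 0.04. The median of the cortical thymocyte markers is 1.08, and TAL1 and ALDH1A2 are the points beyond 5.

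Which other line came next to the TAL1 lines differed from gene to gene. Among the 133 genes higher without overlap, MOLT-14 was the highest other line in 28, ALL-SIL in 26, PEER in 25, SUP-T1 in 24, LOUCY in 12, HPB-ALL in 9, CML-T1 in 5 and MOLT-16 in 4. Among the 96 genes lower without overlap, ALL-SIL was the lowest other line in 20, SUP-T1 in 17, PEER in 14, LOUCY in 12, MOLT-14 and MOLT-16 in 11 each, HPB-ALL in 7 and CML-T1 in 4. TAL1 and HHIP are 2 of the 4 higher genes in which MOLT-16, the line with the highest TAL1 among the others, came next. The 3 lines without readable poly-A controls together accounted for 18 of the 133 and 22 of the 96.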

How the data were processed

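RNA of 11 established T-ALL lines, for which the labels give no treatment, had been hybridized to 1 HG U133 Plus 2.0 array each. The authors processed the scans by RMA (affy), which corrects background, brings all arrays to a common distribution and summarizes the probes of a probe set, and deposited log2 values with 2 decimals, which were used here without further scaling. Genome build and annotation of the arrays are not given in the sources used here.

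Groups followed the cell line label: CCRF-CEM, MOLT-4 and JURKAT against the other 8 lines. Nothing in the labels tells of separate cultures, and 1 array a line sets the precision. After removal of 62 control probe sets, limma 3.58.1 in R 4.3.3 was fitted on 54613 probe sets without covariates, with Benjamini-Hochberg adjustment and a threshold of 0.05. Of these, 41091 carried 1 gene symbol in the array annotation, 1801 several and 11721 none, and 41037 matched RefSeq by gene ID with 0 updates. For each gene the probe set of highest mean was used. Single values were compared by exact permutation over 165 choices of lines.

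Named were TAL1 and genes tied to it, called genes, the 12 genes with the largest difference in each direction without overlap and with the higher mean above 4.70, the median of all values, and of each list the 3 genes with the smallest p and any without overlap. Names outside this rule are marked or stand as examples of a list or of the lines' lineage. The members and the 23 lists were chosen with earlier results of these data known, so that lists are described by counts and medians and were not tested. The fit was tested on simulated data. Alternatives left out lines, changed covariates, scaling, filters, variance models or the probe set of a gene. Some genes are not reported here. Python 3.11.15 with matplotlib 3.10.9 drew the plots.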

Additional observations from a re-analysis of the deposited data

Results flagged for a closer look

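In 4 of 104 named genes 1 of the 8 other lines stood far from the rest by Dixon's criterion, and chance gives about 1 in 20. GIMAP8, a lymphocyte GTPase, read 8.81 in PEER, and the next of the other lines read 3.59. NKX2-2, a homeobox gene of neural and pancreatic development, read 4.54 in SUP-T1, and the next read 3.15, while JURKAT among the TAL1 lines read 5.99. PCDH9 read 11.99 in HPB-ALL, and the next of the other lines, CML-T1, read 6.40, while CCRF-CEM, MOLT-4 and JURKAT read 9.20, 9.19 and 7.29. On this probe set, that of highest mean, the difference was 2.32 over all lines and 3.41 over the lines with poly-A controls, which lack HPB-ALL, and 2 of the 4 probe sets of PCDH9 had the opposite sign. KLHL9 was lowest of the other lines in LOUCY with 8.03, and the next read 9.06.

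MOLT-4 is the only NKL-negative TAL1 line, so that an interaction of TAL1 group and NKL status sets 1 line apart and shows no dependence on NKL status. The term passed in limma in 3 probe sets (adjusted p = 0.0341 each), and in 3242 (5.94%) at an unadjusted p under 0.05. MRC1, the mannose receptor of macrophages, read 8.78 in MOLT-4, 3.26 in CCRF-CEM and 3.06 in JURKAT, and 3.02 to 4.01 in the other lines. Both other probe sets carry no gene symbol and read 7.26 and 7.71 in MOLT-4 and at most 3.76 in the other 10 lines.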

How the results depend on the processing

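No paired analysis was possible because a line belongs to a single group. The count of called probe sets was 0 over all lines and 0 to 1 with a line left out. The single calls were SIX6 without CCRF-CEM, a probe set with no symbol (3.07, adjusted p = 0.0453 from limma) without JURKAT and TAL1 without MOLT-16, and 1 call, a probe set of PCDH9, was made over the lines with poly-A controls. Covariates for poly-A controls or NKL status, scaling, filters, variance models and 1 probe set a gene gave 0 calls. TAL1 differed by 4.86 to 5.98 with a line left out and kept its direction under every alternative. Genes without overlap numbered 153 to 483 higher and 110 to 363 lower with a line left out, 344 and 249 over the lines with poly-A controls, 126 and 79 with a floor at the lower quartile, and 112 and 127 by the mean over the probe sets of a gene, which turns the balance of higher and lower. With a line left out the counts were largest where it was a TAL1 line: 483 higher and 343 lower without CCRF-CEM, 336 and 333 without MOLT-4, and 443 and 363 without JURKAT. Among the other lines, the count moved by over 1.5 times without ALL-SIL (201 higher), LOUCY (148 lower), MOLT-14 (205 and 156) and SUP-T1 (217 and 174). The sign turned in 10 of 104 named genes. With a line left out GATA3 ran from −0.40 to 0.10, GIMAP6 from −1.69 to 0.95, LMO2 from −1.79 to 1.17, LYL1 from −1.23 to 0.42, NKX2-2 from −0.078 to 1.41, STIL from −0.20 to 0.78 and TCF12 from −0.17 to 0.74. Over the lines with poly-A controls, and likewise with a term for them, GIMAP5 was at −0.11 and HLA-DMA at 0.058, and CCND3 was at −0.16 by the mean over its probe sets. Of 23 list medians 13 changed sign, 12 of them with a line left out and 6 over the lines with poly-A controls, among which were the retinoic acid list (−0.22), T-cell receptor signalling (0.04) and myeloid markers (−0.0013). The cause of these changes was not tested. The share of squared distances between the groups was 9.02% to 13.4% under its alternatives, and its exact p was at least 0.267. The 3 lines against 8 limit what can be called, and signals near the lower quartiles of the arrays are not measured.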

Other observations

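Zinc finger genes were looked at after several of them stood among the smallest p-values, so that these values are a description. Of 502 genes whose symbol starts with ZNF and a digit, 12 were lower without overlap (2.39%) and 1 was higher, beside 0.485% and 0.673% over all genes. In 320 of them the TAL1 lines had the lower mean, while over all genes 54.7% had the higher mean in the TAL1 lines. The zinc finger genes had a median difference of −0.14, and −0.12 over the lines with poly-A controls. There 18 of the 502 were lower without overlap, while the count over all genes rose as well, from 96 to 249 (1.26%). A probe set of ZNF26 other than the one of highest mean, which overlapped, read 5.58, 5.10 and 4.68 in CCRF-CEM, MOLT-4 and JURKAT, and 5.87 to 6.88 in the other lines. The probe set of ZNF814 with the smallest p, again not that of highest mean, read 3.91, 4.58 and 3.86 in CCRF-CEM, MOLT-4 and JURKAT, and 4.97 to 6.86 in the other lines. Many of these genes are close relatives of each other, and their probes may read several of them.

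A second probe set of AIF1L, an actin-binding relative of AIF1, read 5.78, 7.20 and 8.26 in CCRF-CEM, MOLT-4 and JURKAT, and 3.53 to 5.58 in the other lines, a difference of 2.85 (SE 0.52, adjusted p = 0.759 from limma). The probe set of AIF1L with the highest mean differed by 0.98 and overlapped.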
